A study of Gallus gallus with 8 samples.

Results

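The circadian clock and melatonin genes described here are a set of 9 genes chosen by symbol before any filter on level: the clock genes CLOCK, ARNTL, PER2, PER3, CRY1 and CRY2, the melatonin enzymes TPH1 and AANAT, and the melanopsin gene OPN4. Of the 16700 genes in the table, 8 carried one of these symbols and had reads, and all 8 passed the filter on low counts. The members and the gene lists used below were chosen with earlier results of these data known. OPN4 had no row under that symbol. The GRCg7b annotation gives OPN4-2 as an older name of OPN4, and the row OPN4-2 is therefore described beside the 8 members but is not included in their counts. RNA came from untreated chicken embryos, either from whole retina on 3 days of incubation (E8, E16 and E18, where E is embryonic day) or from whole cornea at E18, a reference tissue that is not neural. The eggs were Cobb/Hubbard F1 hybrids, and each of the 4 groups has 2 libraries that the study calls biological duplicates. The study numbers the subjects as Chicken 1 and Chicken 2 within every age and tissue. Whether each library came from a single embryo, and whether the E18 retina and cornea libraries of one number came from the same embryo, is not stated. The sex of the embryos, the lighting and the time of day of harvest are not given in the sources used here, so any difference in harvest time cannot be told apart from the groups.

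In vertebrates the clock is a loop of transcription and repression that runs in single cells. CLOCK and ARNTL proteins bind as a pair to E-box sites and switch on the PER and CRY genes, whose products then repress that pair until they are degraded. The chick retina and pineal gland contain such clocks, and photoreceptors of the chick retina are a known site of rhythmic melatonin synthesis. In that pathway tryptophan is hydroxylated by TPH1, decarboxylated by DDC, acetylated by AANAT (the enzyme whose activity sets the nightly rhythm) and methylated by ASMT. Melanopsins are light-sensing opsins, and birds have 2 genes for them, OPN4 and OPN4-1.

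The 8 libraries held between 15662779 and 45670254 reads on genes, and 3 reads corresponded to between 1.76 and 5.53 normalized counts, the reads divided by the size factor of the library. The tissues were checked against marker genes. The summed level of the 5 cornea markers with a row (KRT12, LUM, KERA, OGN and LYPD2) was 599998 and 619540.0 normalized counts in the cornea libraries and lay between 78.4 and 746 in the 6 retina libraries. Of 7 photoreceptor markers, the 5 with a row (ARR3, RBP3, PDE6C, PRPH2 and GUCA1A) summed to 2477 and 3636 normalized counts at E8, 45494 and 39048 at E16, 72169.5 and 69400.2 at E18, and 103 and 124 in cornea, where PRPH2 was at 0. Precursor markers, all 4 with a row, were in the opposite order, with sums of 68523 and 58625 at E8 and of 9318 and 10008.0 at E18. Since whole tissues were sequenced, fewer cells of a type and less RNA per cell cannot be told apart in any of the results below. Skeletal muscle markers, 3 of 6 with a row, summed to 5604 and 4339 normalized counts in cornea and between 31.4 and 162 in retina, and their part in the cornea values was not tested.

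Between groups, differences were tested with limma on log2(normalized count + 1) and adjusted by the Benjamini-Hochberg procedure over the 13194 genes that passed the filter. A gene was called at an adjusted p under 0.05. Fold changes are on that log2 scale, which understates the change of genes with few reads. Between E8 and E16 retina, 5 of the 8 members were called, against 64.4% of all genes tested. AANAT, TPH1 and CRY2 were higher at E16 (3 of 8, 34.1% of all genes) and PER2 and PER3 were lower (2 of 8, 30.3% of all genes). Between E16 and E18, 3 of 8 were called, against 18.6% of all genes. These were CLOCK, PER2 and PER3, all higher at E18 (10.7% of all genes). By limma none was lower (7.87% of all genes), nor was any at an unadjusted p under 0.05, or by edgeR or DESeq2 on the recovered reads, which both called TPH1 as a 4th higher member. Between E8 and E18, 4 of 8 were called, against 66.4% of all genes. They were CLOCK, CRY2, AANAT and TPH1, all higher at E18 (35.0% of all genes), and none was lower (31.4% of all genes). Between E18 retina and E18 cornea, 5 of 8 were called, against 71.4% of all genes, with PER2 and PER3 higher in cornea (36.9% of all genes) and ARNTL, AANAT and TPH1 lower (34.5% of all genes). Libraries of the groups compared did not overlap for 7 of the 8 members between E8 and E16 (83.1% of all genes), 5 between E16 and E18 (74.0%), 6 between E8 and E18 (83.9%) and 6 between the tissues (87.2%). The shares called between E8 and E16 and between the tissues are close to those of all genes. The share between E8 and E18 is below that of all genes, on only 8 members. The median log2 fold change of the members was -0.13, 0.44, 0.56 and -0.04 in these 4 comparisons, beside 0.04, 0.02, 0.04 and 0.06 for all genes tested. The 3 retinal comparisons share libraries, so their values are not independent of each other.

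**Figure D1:**
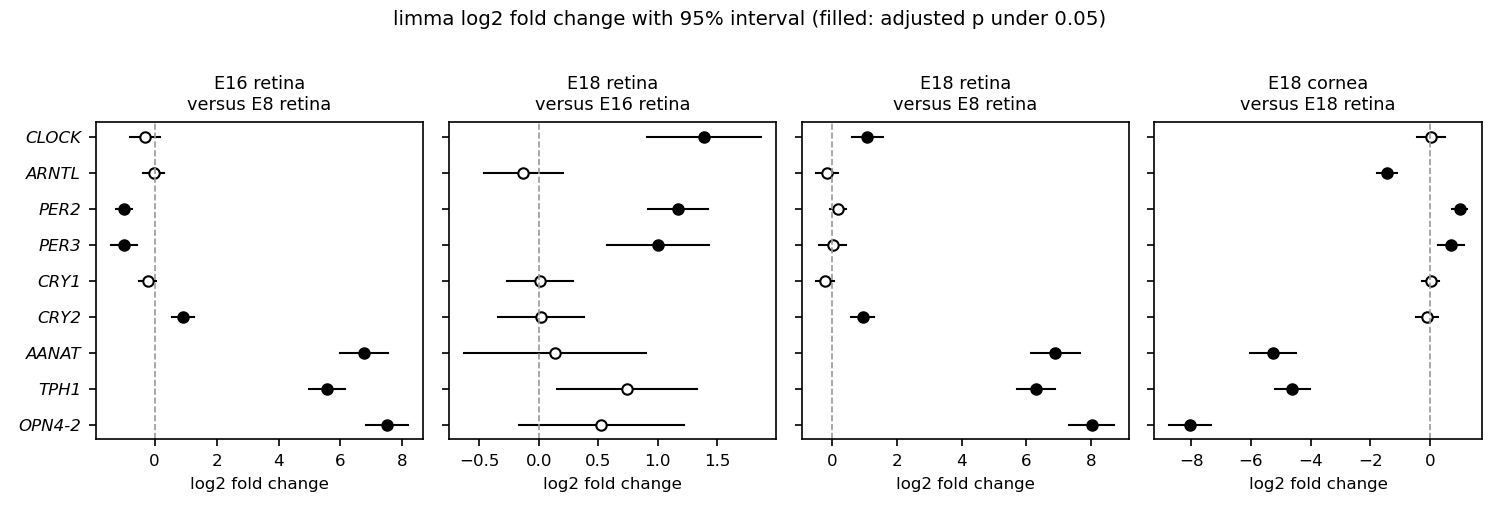
limma log2 fold change (horizontal axis, a separate scale in each panel) with its 95% interval for the 8 members and OPN4-2 in the 4 comparisons. Filled points have an adjusted p under 0.05. AANAT, TPH1 and OPN4-2 lie between 5.57 and 8.03 in both comparisons with E8, while the 6 clock genes stay between -1.43 and 1.39 in all panels.

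Of the activators, CLOCK rose late in the retina and ARNTL held nearly the same level throughout. CLOCK, a transcription factor that binds E-boxes together with ARNTL, had 393 and 354 normalized counts in the E8 libraries, 285 and 317 at E16, 831 and 749.6 at E18, and 989 and 656 in cornea. Both E18 retina libraries lay above all 4 earlier ones, while the cornea libraries lay on either side of those of E18 retina. The log2 fold change of CLOCK from E16 to E18 was 1.39 (standard error 0.21, limma adjusted p = 0.00579), a 2.62-fold rise. From E8 to E18 it was 1.08 (limma adjusted p = 0.00178). From E8 to E16 it was -0.31 (95% interval -0.79 to 0.17) and did not pass the test. The call between E16 and E18 was lost without E16 replicate 1 (limma adjusted p = 0.0609) or E18 replicate 1 (limma adjusted p = 0.0767), at log2 fold changes of 1.31 and 1.32.

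ARNTL, also known as BMAL1, had 4142 and 4876 normalized counts at E8, 4503 and 4275 at E16, and 3862 and 4175 at E18. In cornea it had 1681 and 1314. The 6 retina libraries lay within one narrow band and both cornea libraries lay far below it. No retinal comparison of ARNTL passed the test, with log2 fold changes from -0.16 to -0.03 and a 95% interval of -0.49 to 0.17 for E18 against E8. Between the tissues the log2 fold change was -1.43 (standard error 0.14, limma adjusted p = 2.26e-05), so that cornea had 2.70-fold fewer normalized counts.

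Of their paralogs, NPAS2 rose in retina and ARNTL2 was not called there. NPAS2, which can stand in for CLOCK in mammals, had 18.2 and 23.5 normalized counts at E8, 1125 and 1216 at E16, 2359 and 2251 at E18, and 1212 and 1086 in cornea. It was nearly silent in the E8 libraries and abundant in all others. Its log2 fold change was 5.75 from E8 to E16 (standard error 0.17, limma adjusted p = 6.48e-08) and 0.98 from E16 to E18 (limma adjusted p = 0.00931). Within a library, the ratio of NPAS2 to CLOCK normalized counts moved from 0.0463 and 0.0665 at E8 to 3.95 and 3.84 at E16 and 2.84 and 3.00 at E18. Transcript length enters such a ratio, so its change between groups can be read but not its absolute size. ARNTL2, a paralog of ARNTL, ranged from 5075 to 7336 normalized counts in retina without a called difference, and was lower in cornea at 3885 and 3637 (log2 fold change -0.78, limma adjusted p = 0.000999). In retina its libraries overlapped between every pair of ages.

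The repressors PER2 and PER3 were both lowest in E16 retina. PER2, whose protein with CRY closes the negative limb of the loop and whose transcript is induced by light in the chick pineal gland, had 2722 and 2953 normalized counts at E8, 1451 and 1410.2 at E16, 3387 and 3065 at E18, and 6646.5 and 6168 in cornea. The libraries of the 4 groups did not overlap, and the cornea libraries were the highest. From E8 to E16 the log2 fold change was -0.99 (standard error 0.11, limma adjusted p = 7.1e-05), a 1.98-fold fall. From E16 to E18 it was 1.17 (limma adjusted p = 0.00174), a 2.25-fold rise. E18 stood only 0.18 above E8 (95% interval -0.06 to 0.43), which did not pass the test. Cornea stood 0.99 above E18 retina on the log2 scale (limma adjusted p = 4.18e-05).

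PER3, its paralog, had 604 and 585 normalized counts at E8, 301 and 295 at E16, 640.2 and 558 at E18, and 1153 and 825 in cornea. The E16 libraries lay below all others, and those of E8 lay between those of E18. The log2 fold change was -0.995 from E8 to E16 (standard error 0.19, limma adjusted p = 0.00154) and 1.00 from E16 to E18 (limma adjusted p = 0.0108). E18 and E8 differed by 0.01 (95% interval -0.42 to 0.43). Cornea had 1.63-fold more normalized counts than E18 retina (log2 fold change 0.71, limma adjusted p = 0.00803). The rise from E16 to E18 was no longer called without E16 replicate 1 (limma adjusted p = 0.079), E16 replicate 2 (0.078) or E18 replicate 1 (0.12), while PER2 stayed called without any one library. Without E18 retina replicate 2, the difference of PER3 between the tissues had a limma adjusted p of 0.0646. The ratio of PER2 to PER3 normalized counts within a library stayed between 4.51 and 5.49 in the 6 retina libraries and was 5.76 and 7.47 in cornea. After centring each gene on its own mean over the 8 libraries, PER3 was the 8th closest of all genes tested to PER2, with a root mean square difference of 0.21 on the log2 scale and a Pearson correlation of 0.97 over 8 libraries. This is a description, since the libraries fall into 4 groups.

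The cryptochromes, flavoproteins that act as the other repressors of the loop in vertebrates, parted between E8 and E16. CRY1 had 5724 and 7035 normalized counts at E8, 5527 and 5323 at E16, 5419 and 5507 at E18, and 5709 and 5382 in cornea. Apart from the second E8 library, which was higher, the libraries lay between 5323 and 5724. None of its 4 comparisons passed the test, and between E18 and E8 the log2 fold change was -0.22 (95% interval -0.49 to 0.06). Without E8 replicate 1, CRY1 was called lower than at E8 both at E16 (log2 fold change -0.38, limma adjusted p = 0.0236) and at E18 (-0.36, limma adjusted p = 0.0251). CRY2 had 3099 and 4299 normalized counts at E8, 6464 and 7339 at E16, 7009 and 6941 at E18, and 6881 and 6208 in cornea. Both E8 libraries lay below the 6 others. The log2 fold change of CRY2 was 0.92 from E8 to E16 (standard error 0.16, limma adjusted p = 0.000985) and 0.93 from E8 to E18 (limma adjusted p = 0.000804), while E16 and E18 differed by 0.02 (95% interval -0.34 to 0.38). Cornea and E18 retina differed by -0.09 (95% interval -0.46 to 0.27). Within a library, the ratio of CRY2 to CRY1 normalized counts went from 0.541 and 0.611 at E8 to 1.17 and 1.38 at E16, and lay between 1.15 and 1.29 in the E18 libraries of both tissues.

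**Figure D2:**
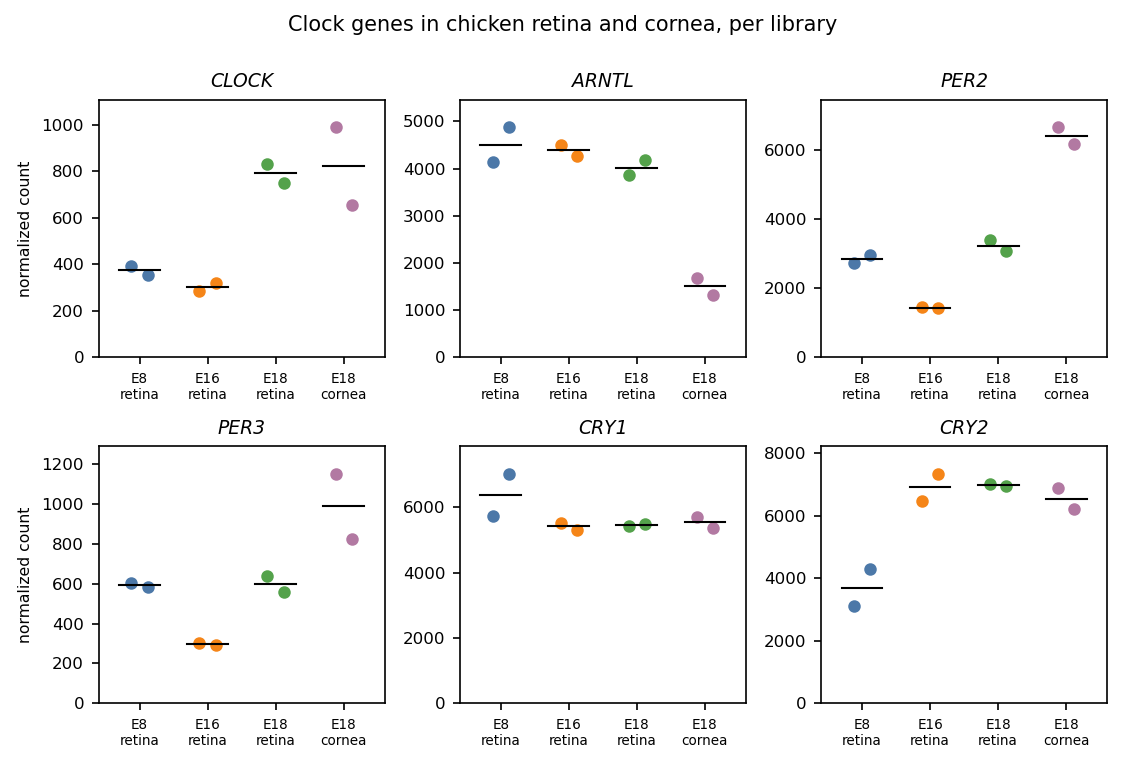
Normalized counts (vertical axis, from 0) of the 6 clock genes in each of the 8 libraries by group. Points are libraries and the black line is the mean of the 2 libraries of a group. PER2 and PER3 are lowest in E16 retina, CLOCK is at 749.6 or more in both E18 retina libraries and at 393 or less before, ARNTL is at 1681 or less in cornea, and CRY2 is at 4299 or less at E8.

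The wider clock was read from lists chosen for their place in the pathway. Across clock, melatonin and photopigment lists together, 59 genes were tested, and 41 of them were called between E8 and E16 (28 higher and 13 lower, against 34.1% and 30.3% of all genes). From E16 to E18 the number was 15, of which 13 rose and 2 fell (against 10.7% and 7.87%). Between E8 and E18, 41 were called (31 higher and 10 lower, against 35.0% and 31.4%), and between the tissues 43 (8 higher and 35 lower in cornea, against 36.9% and 34.5%). These counts include ASMT, OPN4-2, RGR and pinopsin, which passed the filter only through E16 or E18 retina. The direction of these genes against E8 retina and cornea was thus set by the filter. The total called was close to the share of all genes in the comparisons of E8 with E16, of E8 with E18 and of the tissues (64.4%, 66.4% and 71.4%). The median log2 fold change of the 59 genes was 0.32, 0.41, 0.83 and -0.84 in the order of the 4 comparisons. With pinopsin, which had no reads in E8 retina or in cornea, set to its bound, it was 0.32, 0.41, 0.72 and -0.82. The count of 15 fell to between 4 and 8 when 1 of E16 replicate 1, E16 replicate 2 or E18 replicate 1 was left out, and the share of all genes called fell with it, from 18.6% to between 0.826% and 3.23%. PER2, REV-ERBB, HLF and DRD4 were the 4 of the 15 that stayed called whichever of the 8 libraries was left out. In the other comparisons that number was 35 of 41 between E8 and E16, 33 of 41 between E8 and E18 and 37 of 43 between the tissues. Of the genes named in the text, those that lost a call in this way between E16 and E18 were CLOCK, PER3, NPAS2, RORA, TEF, BHLHE40, OPN4-1, PLCB1, TRPC6, pinopsin and PCBD1, each without at least 1 library of E16 or E18 and none with a change of direction.

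In the accessory loop, nuclear receptors compete at sites in the ARNTL promoter, with ROR proteins activating and REV-ERB proteins repressing. NR1D2, listed as REV-ERBB, had 1103 and 761 normalized counts at E8, 1280.3 and 1342 at E16, and 4840.03 and 4055 at E18. Its log2 fold change was 0.52 from E8 to E16 (limma adjusted p = 0.0323, and up to 0.181 with 1 library left out, E8 replicate 2, either E16 library or either cornea library ending the call) and 1.76 from E16 to E18 (limma adjusted p = 0.00229). RORA, listed as RORALPHA1, also rose from E16 to E18 (log2 fold change 1.06, limma adjusted p = 0.0134). RORB, which in the retina also takes part in photoreceptor and interneuron development, was highest at E8. It fell from 11085 and 8793 normalized counts at E8 to 871 and 950.2 at E16 (log2 fold change -3.44, limma adjusted p = 5.17e-06). At E18 it had 1509 and 1323.5, above both E16 libraries but not called (log2 fold change 0.63, limma adjusted p = 0.0996). In cornea it had 9.22 and 15.97.

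Among the output genes, TEF and HLF are factors that bind D-boxes as activators, NFIL3 represses at the same sites, and BHLHE40 represses at E-boxes. HLF had 235 and 183 normalized counts at E8, 786 and 812 at E16, 3086 and 2917 at E18, and 3228 and 3408 in cornea. It rose at each step, by log2 fold changes of 1.94 (limma adjusted p = 7.1e-06) and 1.91 (limma adjusted p = 0.00115). TEF rose by 1.00 from E16 to E18 (limma adjusted p = 0.00619). BHLHE40 rose from 49.8 and 43.1 normalized counts at E8 to 401 and 408 at E18, and had 3593.5 and 2076 in cornea, which stood 2.75 above E18 retina on the log2 scale (limma adjusted p = 1.66e-05). NFIL3 fell from 5721 and 6958 at E8 to 2727 and 2667 at E16 (log2 fold change -1.23, limma adjusted p = 0.00012) and had 1819 and 2014 at E18. All 4 genes tested in this list were called between E8 and E18, against 66.4% of all genes. The 2 D-box activators and BHLHE40 were higher and the D-box repressor was lower.

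The kinases and ubiquitin ligase components that mark PER and CRY for degradation were called lower where they were called between E8 and E16. Of 7 tested, 4 were called lower at E16 than at E8 and none higher by limma, edgeR or DESeq2 or at an unadjusted p under 0.05, where 30.3% of all genes were called lower and 64.4% in either direction, with a median log2 fold change of -0.55. CSNK1E, a casein kinase that phosphorylates PER proteins, went from 4704 and 5484 normalized counts at E8 to 3166 and 3061 at E16 and 2667 and 2857 at E18. Its log2 fold change from E8 to E18 was -0.88 (limma adjusted p = 0.000203), and that of CSNK1D was -0.58 (limma adjusted p = 0.000874). Over that interval 4 of the 7 were called lower and 1 higher, against 31.4% and 35.0% of all genes. The gene called higher was BTRC, a ubiquitin ligase component (log2 fold change 0.63, limma adjusted p = 0.0131). None of the 7 passed the limma test between E16 and E18, against 18.6% of all genes. There 2 had an unadjusted p under 0.05, edgeR called none (20.7% of all genes) and DESeq2 called 1 (22.8%). FBXL21, an F-box protein that binds CRY in mammals, ranged from 1612 to 1819.5 normalized counts in retina with no called difference.

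The melatonin enzymes TPH1 and AANAT had few reads at E8 and were abundant in retina from E16. TPH1, which hydroxylates tryptophan in the first step, had 13.5 and 12.7 normalized counts at E8 (23 and 13 reads), 603 and 744 at E16, 1141 and 1102 at E18, and 36.9 and 54.05 in cornea. The groups did not overlap, and both cornea libraries lay above both E8 libraries. Its log2 fold change was 5.57 from E8 to E16 (standard error 0.26, limma adjusted p = 5.48e-07), 47.6-fold on that scale with a 95% interval of 31.6 to 71.5. From E8 to E18 it was 6.31 (limma adjusted p = 2.05e-07). From E16 to E18 the difference of 0.74 (95% interval 0.15 to 1.33) did not pass the test with limma (adjusted p = 0.0777), whereas on the recovered whole reads it was called by edgeR (adjusted p = 0.0241) and DESeq2 (adjusted p = 0.00765). Cornea was lower than E18 retina by a log2 fold change of -4.62 (limma adjusted p = 6.48e-07). SAAL1, which overlaps TPH1 in GRCg7b, fell from E8 to E18 (log2 fold change -0.95, limma adjusted p = 6.99e-05).

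AANAT had 4.10 and 5.88 normalized counts at E8 (7 and 6 reads), 689.5 and 599.7 at E16, 594 and 840.4 at E18, and 22.1 and 13.5 in cornea (12 and 11 reads). Every E16 and E18 retina library lay far above every library of E8 and of cornea, and the E16 libraries lay between those of E18. The log2 fold change was 6.76 from E8 to E16 (standard error 0.34, limma adjusted p = 7.64e-07), 109-fold on that scale with a 95% interval of 63.9 to 185. From E8 to E18 it was 6.90 (limma adjusted p = 5.06e-07), and with a pseudocount of 8 the same difference was 5.79. E16 and E18 differed by 0.14 (95% interval -0.63 to 0.90), and the 2 E18 libraries stood further apart than the 2 means. Cornea was lower than E18 retina by a log2 fold change of -5.27 (limma adjusted p = 1.36e-06).

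DDC and ASMT also rose from E8 to E16. DDC, which decarboxylates 5-hydroxytryptophan and also serves dopamine synthesis, went from 4.10 and 19.6 normalized counts at E8 to 680.1 and 570.3 at E16 and 1099 and 1098 at E18. ASMT, the last enzyme, went from 5.27 and 3.92 (9 and 4 reads) to 1186 and 1221 at E16 and 1620.0 and 1629 at E18, and had 4 and 3 reads in the cornea libraries. Their log2 fold changes from E8 to E16 were 5.93 (limma adjusted p = 5.45e-05) and 7.76 (limma adjusted p = 3.14e-07). The 2 E8 libraries of DDC differed, and without one or the other its log2 fold change was between 4.92 and 6.93. TPH2, the form of tryptophan hydroxylase used by brain neurons in mammals, was present at all 3 ages, between 82.3 and 173 normalized counts, with no called difference in retina. Of the 5 genes of the pathway, 4 were called higher at E16 than at E8, against 34.1% of all genes. None was called between E16 and E18 by limma, against 18.6% of all genes. Over that step 1 had an unadjusted p under 0.05, edgeR called 1 and DESeq2 called 2. All 5 were called lower in cornea than in E18 retina, against 34.5% of all genes. ASMT had fewer than 10 reads in each E8 and cornea library and passed the filter only through E16 and E18 retina. Its direction against E8 and cornea in these counts was set by the filter.

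Photoreceptor markers rose over the same interval, and the melatonin genes were set against them. Per 1000 normalized counts of the 5 photoreceptor markers, AANAT had 1.66 and 1.62 at E8, 15.2 and 15.4 at E16, and 8.23 and 12.1 at E18. TPH1 had 5.44 and 3.50 at E8, 13.3 and 19.0 at E16, and 15.8 and 15.9 at E18. ASMT had 2.13 and 1.08 at E8, 26.1 and 31.3 at E16, and 22.4 and 23.5 at E18. Against this sum all 3 enzymes stood higher at E16 than at E8, but RBP3 made up 2423 of the 2477 and 3592 of the 3636 normalized counts at E8. The direction depended on the marker. The cone arrestin ARR3 went from 3.52 and 12.7 at E8 to 14477 and 11971 at E16. PRPH2 went from 1.76 and 2.94, which is 3 reads in each E8 library, to 3001 and 2258. Against either of these markers the 3 enzymes stood lower at E16 than at E8. PDE6C went from 49.2 and 28.4 at E8 to 4425 and 4852 at E16. Against PDE6C, ASMT stood higher at E16 and TPH1 lower, while the E16 libraries of AANAT lay between those of E8. GUCA1A was at 0 in both E8 libraries, so no ratio to it is given. The median log2 fold change of the 5 markers from E8 to E16 was 9.63, above those of AANAT, TPH1 and ASMT. These ratios are given without a test.

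Genes that act on AANAT in other systems were read as a list of 11, of which 9 were tested. Of the 9, limma called 3 higher and 1 lower at E16 than at E8, against 34.1% and 30.3% of all genes. Against E8, 4 were higher and 2 lower at E18 (35.0% and 31.4% of all genes). In cornea 7 were lower than in E18 retina and 0 higher (34.5% and 36.9% of all genes), while edgeR called 6 lower. DRD4, the dopamine receptor through which light lowers cAMP in chick photoreceptors, had 2.93 and 3.92 normalized counts at E8 (5 and 4 reads), 349 and 391 at E16, 3066 and 3203 at E18, and 142 and 213 in cornea. It was called again between E16 and E18 (log2 fold change 3.08, limma adjusted p = 0.00136). The cyclase genes ADCY1 and ADCY8, whose products make cAMP, rose from E8 to E16 by 1.41 (limma adjusted p = 0.0132) and 4.24 (limma adjusted p = 2.19e-05), the first no longer called without E8 replicate 1, E16 replicate 1 or E16 replicate 2 (adjusted p up to 0.0945). CREB1, a factor that responds to cAMP, fell by 1.53 on the log2 scale (limma adjusted p = 9.56e-05). YWHAZ, a 14-3-3 protein of the kind that shields phosphorylated AANAT in mammals, ranged from 27075 to 31342 normalized counts in retina with no called difference. OTX2, a homeobox factor of photoreceptors, ranged from 10912 to 21678 normalized counts in retina and had 9.22 and 59.0 in cornea.

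Of 4 listed melatonin receptor genes, 2 had a row, and these were low in retina. MTNR1C and GPR50 were not matched to a row, so their levels are not known here. MTNR1A, listed as MEL1A, had 1 and 0 reads at E8 and 24 and 32 at E16, which corresponded to 25.2 and 26.1 normalized counts, and reached 73.9 and 53.8 at E18. MTNR1B, listed as MEL1B, had 17.0 and 12.7 at E8, 38.9 and 43.3 at E16, 46.4 and 50.7 at E18, and 424 and 626 in cornea. MTNR1B was called higher in cornea than in E18 retina (log2 fold change 3.38, limma adjusted p = 1.24e-05), while MTNR1A was called lower there (-1.42, limma adjusted p = 0.0103, and 0.0805 without E18 retina replicate 1).

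OPN4, listed as OPN4-2, had 4.69 and 7.84 normalized counts at E8 (8 reads in each library), 1308 and 1262 at E16, 1932 and 1776 at E18, and 7.38 and 4.91 in cornea (4 reads in each). The libraries of E16 and E18 retina did not overlap, and E8 retina and cornea lay at the bottom together. The log2 fold change from E8 to E16 was 7.5025 (standard error 0.30, limma adjusted p = 2.77e-07), 181-fold on that scale with a 95% interval of 112 to 293. From E16 to E18 it was 0.53 (95% interval -0.17 to 1.22) and was not called by limma, though edgeR (adjusted p = 0.039) and DESeq2 (adjusted p = 0.0265) called it. WAPL, listed as WAPAL, overlaps OPN4 in GRCg7b, and it fell from E8 to E18 (log2 fold change -0.62, limma adjusted p = 0.00625).

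OPN4-1, the other melanopsin of birds (also named OPN4x), rose at both steps. It had 42.8 and 48.0 normalized counts at E8, 654 and 933 at E16, 3355 and 2935 at E18, and 18.4 and 33.2 in cornea. From E16 to E18 its log2 fold change was 2.01 (standard error 0.30, limma adjusted p = 0.00579), after 4.08 from E8 to E16 (limma adjusted p = 7.06e-06). The ratio of OPN4-2 to OPN4-1 normalized counts within a library was 0.11 and 0.163 at E8, 2.00 and 1.35 at E16, and 0.576 and 0.605 at E18. HPGDS, which overlaps OPN4-1 in GRCg7b, did not rise in retina (log2 fold change -2.21 from E8 to E18, limma adjusted p = 0.0401).

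**Figure D3:**
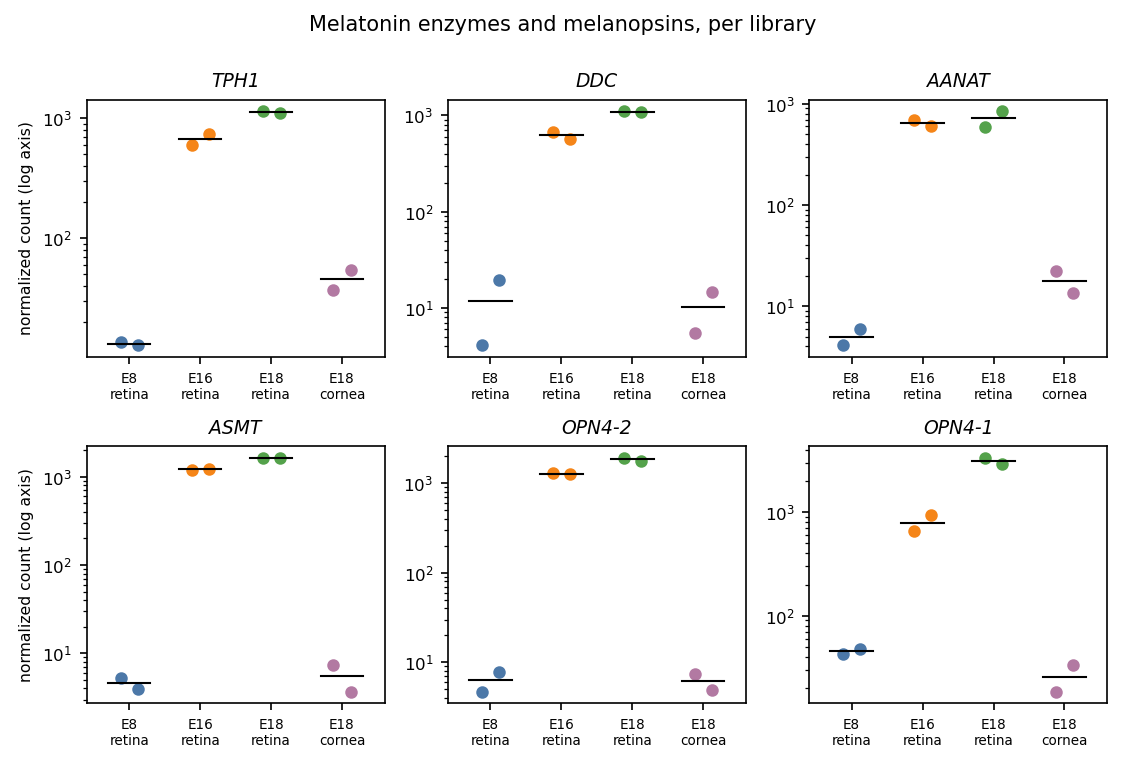
Normalized counts (vertical axes, logarithmic, a separate range in each panel) of the 4 melatonin enzymes and both melanopsins in each of the 8 libraries by group. Points are libraries and the black line is the mean of the 2 libraries of a group. In every panel the E16 and E18 retina libraries lie at 570.3 or more, while E8 retina and cornea stay at 54.05 or less.

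The other opsins that do not serve image-forming vision followed the same order between E8 and E16. The list of these opsins, which includes OPN4-2 and OPN4-1, had 7 tested genes. All 7 were called higher at E16 than at E8, against 34.1% of all genes. Pinopsin, OPN4-2 and RGR had fewer than 10 reads in each E8 and cornea library. They passed the filter only through E16 or E18 retina, so their direction against E8 and cornea was set by the filter. By limma all 7 were called lower in cornea than in E18 retina, against 34.5% of all genes, while edgeR and DESeq2 each called 6. In the tissue comparison the call of OPN3 was lost without either E18 retina library or cornea replicate 2 (limma adjusted p up to 0.0655), and that of pinopsin rested on 1 and 2 reads at E18. OPN5, a violet or ultraviolet pigment of the chick, had 22.3 and 37.2 normalized counts at E8 and 188 and 139 at E16. OPN3 had 10.5 and 6.86 at E8 and 120 and 143 at E16. RGR and RRH, opsins that bind all-trans retinal, had 194 and 167 and 351 and 282 at E18. RGR and RRH are also products of the pigment epithelium, which was peeled away. Its 7 markers summed to 145 and 180.3 normalized counts at E8, 1893 and 1197 at E16, and 625 and 616 at E18, and most of that sum was DCT. RPE65, a defining gene of that tissue, had 20.5 and 23.5 at E8, 8.41 and 16.3 at E16, and 86.5 and 108 at E18. Its rise from E16 to E18 was not shared by most of the 7 markers, whose median log2 fold change was -0.94. Of the 7, limma called 1 higher and none lower over that step. The part of pigment epithelium in the opsin values was not tested.

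Of the 7 genes of the melanopsin cascade, in which a Gq protein drives phospholipase C and TRPC channels, 3 were called higher and 4 lower at E16 than at E8, where 34.1% and 30.3% of all genes were. The phospholipase gene PLCB4 rose by 0.71 on the log2 scale (limma adjusted p = 0.00384) and PLCB1 by 2.16 (limma adjusted p = 0.000121). The channel gene TRPC7 rose by 2.35 (limma adjusted p = 0.00056), while TRPC6 fell by 0.99 (limma adjusted p = 0.0301), a call that was lost in 6 of the 8 fits with 1 library left out (adjusted p up to 0.165), all but those without E8 replicate 2 or cornea replicate 1. The Gq family genes GNAQ and GNA11 fell by 1.19 (limma adjusted p = 0.000266) and 0.70 (limma adjusted p = 0.00105). GNA14, the 4th gene called lower, had 6 and 4 reads at E8 and 0 and 1 at E16. Its call was lost without either E8 library or E16 replicate 1 (limma adjusted p up to 0.115), and edgeR and DESeq2 called 3 genes of this list lower. All of these are expressed by many other cell types.

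**Figure D4:**
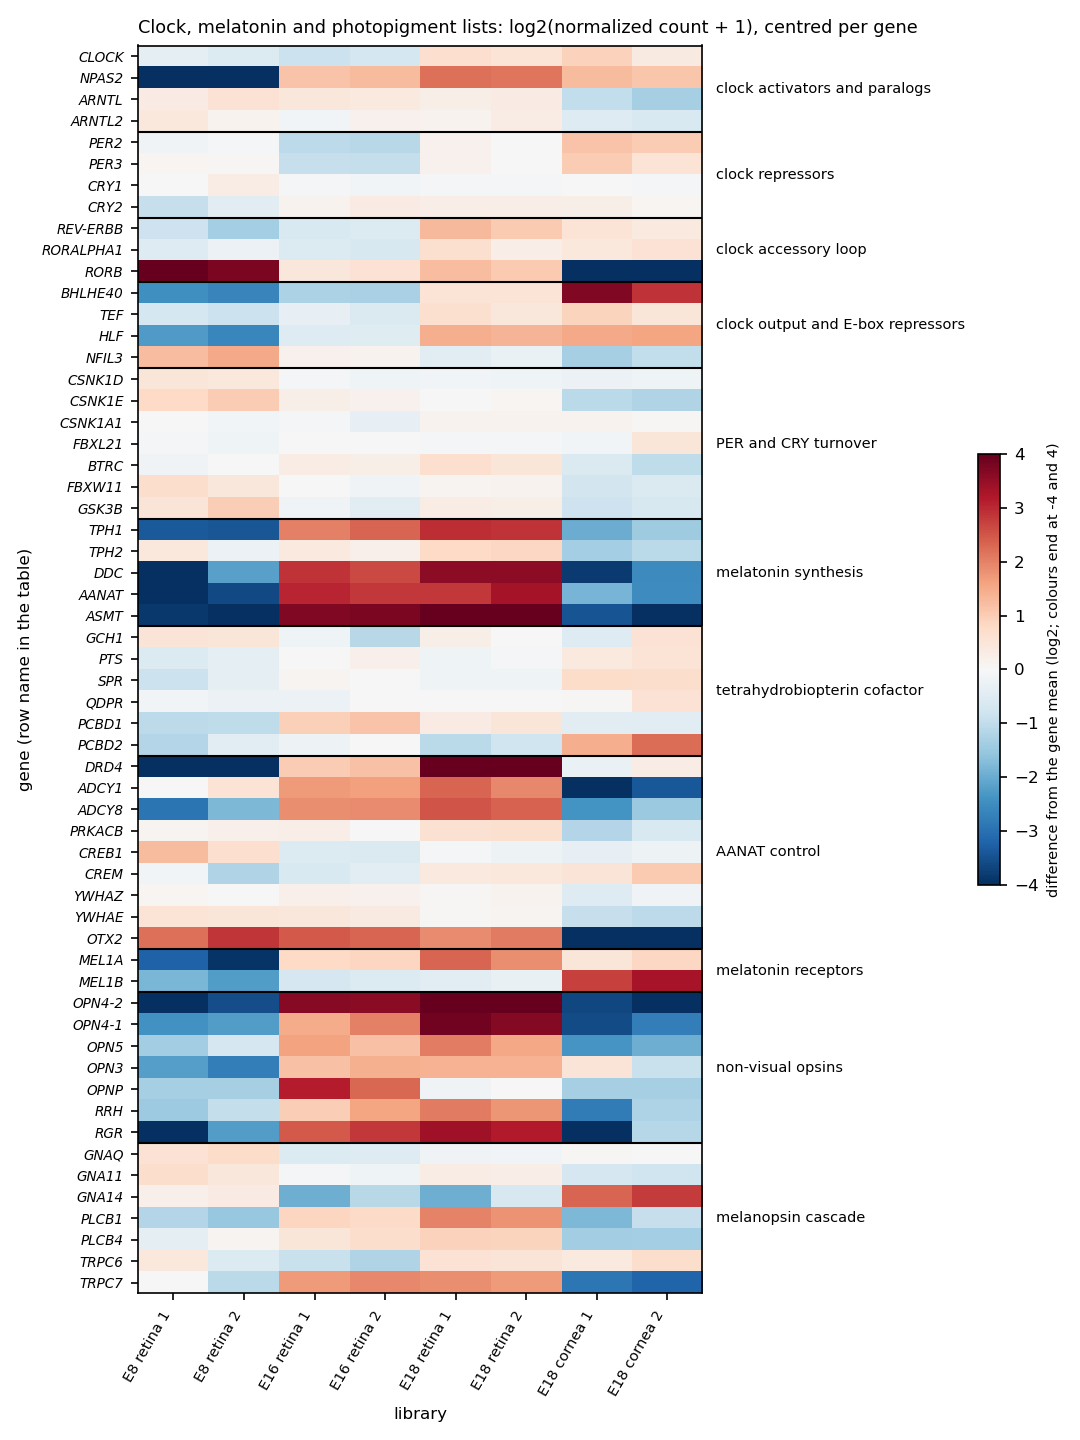
log2(normalized count + 1) of 58 of the 59 listed genes tested (rows, grouped by list) in the 8 libraries (columns), each centred on its own mean, with colours that end at -4 and 4. The 2 E8 retina and 2 cornea columns are blue for TPH1, DDC, AANAT, ASMT, OPN4-2 and OPN4-1 where the E16 and E18 retina columns are red, and PER2 and PER3 are blue at E16.

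For each member, the genes with the most similar course over the 8 libraries were found by the root mean square difference of centred log2 values. This search covered tested genes with a symbol and left out Ensembl IDs, LOC names and small RNAs. For AANAT these were NYX (0.42, Pearson correlation 0.99), which encodes nyctalopin of bipolar cells, and CCR6 (0.42, 0.99). For TPH1 they were ASPA (0.32, 0.99) and AIFM3 (0.40, 0.99). The closest gene to OPN4-2 was ASMT (0.28, 1.00), followed by LRIT1 (0.45, 1.00), a membrane protein of photoreceptors in mammals. AANAT and TPH1 differed from each other by 0.63, with 11 of all genes tested closer to AANAT than TPH1 was. PER2 was closest to PLAGL1 (0.09, 0.99), PER3 to NFATC3 (0.11, 0.99), CLOCK to TNNI3K (0.15, 0.98), ARNTL to SGTA (0.08, 0.99), CRY1 to GLTPD1 (0.07, 0.85) and CRY2 to RDH14 (0.10, 0.99). The members that change little are close to many genes, so these distances are not comparable between members.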

How the data were processed

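Poly(A)-selected RNA of 8 libraries was sequenced as paired ends. Alignment to the galGal4 genome used STAR 2.5.1b, gene counts came from featureCounts 1.5.0, and the authors then scaled each library by its DESeq2 1.6.2 size factor. The deposited values are thus a signal per gene and library, size-factor-normalized counts. The annotation release, the use of strand in counting and the treatment of overlapping genes are not given in the sources used here, so overlapping genes are uncertain.

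Dividing by the value of 1 read gave whole reads for 100% of the values (within 0.01, largest deviation 6.28e-05). limma 3.58.1 in R 4.3.3, with eBayes and a mean-variance trend, was fitted to log2(value + 1) of the 13194 genes kept by filterByExpr (minimum count 10), with 1 term per group over all 8 libraries. edgeR 4.0.16 and DESeq2 1.42.0 on the recovered reads were alternatives. The limma fit of E18 against E8 retina was also run on simulated counts, with a fixed dispersion and few changed genes. That setting is simpler than these data, and the other comparisons and tools were not simulated. With 2 libraries per group, p-values rest on a spread shared over all groups. Intervals come from limma, and reads carry no molecular identifiers, so few reads limit precision beyond them.

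The members and gene lists were chosen with earlier results of these data known. Named genes are the members, every gene of the pathway lists, and the 2 genes with a symbol closest in course to each member. Of 76 listed pathway genes 59 had a row, 5 of them through GRCg7b synonyms, and the others were not analysed here. SAAL1, WAPAL and HPGDS were chosen after their values were seen. One listed gene is not reported here. No sequences are shown. Alternatives covered the pseudocount, filter, normalization, tool, libraries fitted, replicate number as a block, adjustment, fold threshold and leaving out each library.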

Additional observations from a re-analysis of the deposited data

How the results depend on the processing

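Of 20 called differences of the 8 members and OPN4-2 over the 4 comparisons, 12 kept their direction and call under all 19 alternatives. Requiring a fold of at least 2 left 2 members called in place of 5 between E8 and E16. The calls lost there were those of PER2 (1.98-fold), PER3 (1.99-fold) and CRY2 (1.89-fold). Between the tissues that threshold left 3 in place of 5, without PER2 (1.99-fold) and PER3 (1.63-fold). The share of all genes called fell with that threshold too, from 64.4% to 40.3% and from 71.4% to 49.8%. Between E16 and E18, leaving out 1 library gave between 1 and 4 called members in place of 3, and between 4 and 21 genes of the pathway lists in place of 15, where DESeq2 called 23 and a fit of only the 4 libraries compared called 31. Of all genes, DESeq2 called 22.8% over that step and the fit of only the 4 libraries called 35.3%, in place of 18.6%. The higher list counts under these 2 settings thus came with a higher share of all genes. Differences that were not called changed sign when 1 library was left out, with log2 fold changes from -0.152 to 0.0831 for ARNTL between E8 and E16, from -0.115 to 0.386 for AANAT, -0.0169 to 0.0373 for CRY1 and -0.0734 to 0.11 for CRY2 between E16 and E18, from -0.0912 to 0.107 for PER3 between E8 and E18, and from -0.266 to 0.325 for CLOCK and -0.0216 to 0.0637 for CRY1 between the tissues. PER3 between E8 and E18 was also at -0.0187 with TMM normalization and at -0.0174 with edgeR. The cause of these changes was not tested.

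With the replicate number as a block, 5, 3, 4 and 5 members were called in the order of the report, and no member changed its call. The pathway lists had 43, 18, 40 and 42 called genes, beside 63.8%, 17.1%, 65.9% and 70.9% of all genes. Libraries of the same number did not deviate together (correlations from -0.05 to 0.05). TMM or DESeq2 scaling moved the median of all genes by less than 0.1 on the log2 scale in each comparison. At E8 and in cornea, AANAT, OPN4-2 and ASMT rest on 12 reads or fewer per library, so the size of their fold changes depends on the pseudocount, with log2 fold changes of AANAT from E8 to E16 between 5.65 and 7.07 over all alternatives.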

Other observations

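Pinopsin and the cofactor genes belong to the opsin and melatonin lists. Pinopsin (OPNP), a blue-sensitive opsin best known from the chick pineal gland, was seen in E16 retina with 20 and 14 reads, at 0 in both E8 libraries and both cornea libraries, and with 1 and 2 reads at E18. Relative to 3 reads in the shallower E8 library, E16 was at least 5.52-fold higher. It was called lower at E18 than at E16 (log2 fold change -2.80, limma adjusted p = 0.00766), on few reads, and not without E16 replicate 1 or E18 replicate 1 (adjusted p up to 0.0798). The reads seen at E18 are under the limit of 3, so no fold is given for E18 against E8 or cornea.

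Tryptophan hydroxylases need tetrahydrobiopterin, which GCH1, PTS and SPR make and QDPR and PCBD1 recycle. PCBD1 had 237 and 240.1 normalized counts at E8, 945 and 1070.3 at E16, and 605 and 685 at E18, a rise of 2.07 on the log2 scale to E16 (limma adjusted p = 7.81e-06) and a log2 fold change of -0.64 from E16 to E18 (limma adjusted p = 0.0261, but not called without any one of the 4 libraries compared). PTS and SPR rose to E16 by 0.55 (limma adjusted p = 0.01) and 0.69 (limma adjusted p = 0.0209), calls that were lost without E16 replicate 2 for both, and also without E8 replicate 1 or E16 replicate 1 for SPR (adjusted p up to 0.1). GCH1, whose product catalyses the first step, had 49.8 and 49.0 at E8 and 30.5 and 15.5 at E16, and was not called (limma adjusted p = 0.0546). Of the 6 cofactor genes tested, 3 were called higher at E16 than at E8 and 1 at E18, while 4 of the 5 melatonin enzymes were called higher at both ages. Of all genes, 34.1% were called higher at E16 than at E8 and 35.0% at E18.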
